A study of Mus musculus with 8 samples.

Results

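RNA from the white portion of the quadriceps of 8 male mice was compared after the libraries had been divided by the measured level of a single gene, Myh2, which encodes the myosin heavy chain of type IIa muscle fibres. The 4 libraries with at least 20000 normalized Myh2 reads were chosen by this value as the Myh2-rich side, and the other 4 of the 8 formed the Myh2-poor side. A normalized read is a read count divided by 1 scale factor per library, recovered by undoing the log of the deposited values. The control animals had the genotype Loxp/Loxp, and the 4 others were muscle knockouts of Acot2 made with CKM Cre, in which the promoter of muscle creatine kinase, active in skeletal and heart muscle, drives the Cre recombinase. These are written below as controls 1 to 4 and mKO 1 to 4. All animals were male, 11 to 14 weeks old and fed chow, and the muscle was taken in the morning. The sources used here do not say how the white portion was cut out. Each side held 2 controls and 2 knockouts. Because measured Myh2 values drew the sides, a difference between them describes which transcripts went with Myh2, tests no treatment, and is no finding for Myh2 itself.

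Mouse limb muscles are mosaics of fibres that differ in the myosin heavy chain they make. Slow type I fibres use Myh7 and burn fatty acids and pyruvate in many mitochondria, type IIa fibres use Myh2 and are fast but also oxidative, type IIx fibres use Myh1, and the fast glycolytic type IIb fibres use Myh4. In the quadriceps the red, oxidative part lies deep and the white, type IIb part lies at the surface, so that neighbouring portions of the muscle differ in their fibres.

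Myh2 lies on chromosome 11 of GRCm38, at chr11:67171027-67197517 on the plus strand, and Myh1 (chr11:67200052-67224575) and Myh4 (chr11:67238029-67260446) follow it on the same strand. These positions are GENCODE M21's. The windows run from 250 bases before to 50 after the start that RefSeq gives, which for Myh1 and Myh4 is another start than the one above, and are shown because the levels of these genes defined the division and the fibre types. Their sequences are RefSeq's, on GRCm38.p6, written 5′ to 3′ in the direction of the gene. Capitals mark the longest stretch that all 3 windows share, of 20 bases.
Myh2, chr11:67170777-67171076: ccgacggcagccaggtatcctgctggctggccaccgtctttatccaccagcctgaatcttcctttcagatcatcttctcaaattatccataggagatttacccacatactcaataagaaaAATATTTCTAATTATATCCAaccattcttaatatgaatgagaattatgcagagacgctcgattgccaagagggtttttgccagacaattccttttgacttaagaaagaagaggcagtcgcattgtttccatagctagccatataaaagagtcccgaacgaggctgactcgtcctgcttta
Myh1, chr11:67199852-67200151: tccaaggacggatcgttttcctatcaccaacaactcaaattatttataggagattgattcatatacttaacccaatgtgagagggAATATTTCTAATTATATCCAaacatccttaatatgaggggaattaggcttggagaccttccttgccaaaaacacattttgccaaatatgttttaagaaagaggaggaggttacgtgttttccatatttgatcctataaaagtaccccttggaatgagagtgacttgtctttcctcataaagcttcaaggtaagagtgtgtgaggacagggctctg
Myh4, chr11:67237562-67237861: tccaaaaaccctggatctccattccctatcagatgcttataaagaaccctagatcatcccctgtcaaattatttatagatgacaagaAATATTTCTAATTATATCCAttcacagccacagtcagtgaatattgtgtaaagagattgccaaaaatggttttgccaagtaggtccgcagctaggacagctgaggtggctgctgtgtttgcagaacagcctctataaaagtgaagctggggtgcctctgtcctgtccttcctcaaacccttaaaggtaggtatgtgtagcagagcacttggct
The shared stretch was found, on either strand, in 3 of 27025 windows of the table (1 window per gene), which are these 3. A match to the MEF2 motif, searched on both strands, was found once in the Myh1 window, once in the Myh4 window and not in the Myh2 window. The E-box CANNTG, the motif of muscle basic helix-loop-helix factors, had 3 matches in the Myh4 window and 0 in the windows of Myh2 and Myh1.

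Some libraries stood apart in measures other than Myh2. The libraries held between 30415437 and 48834281 reads, and mitochondrial transcripts made up 12.2% ± 0.694 (SD, n = 4) of the reads on the Myh2-rich side and 11.1% ± 1.20 (SD, n = 4) on the Myh2-poor side. Of the 4 Myh2-rich libraries, mKO 3 and mKO 4 held 2133 and 7430 normalized reads of the slow myosin Myh7, while the other 6 libraries held 7.83 to 40.1. Adipocyte markers, summed over 13 genes, came to 73739 normalized reads in control 2 and 17098 in control 3, against 4665 to 10467 in the other 6 libraries. All 4 Myh2-poor libraries, although labelled male, held reads of Xist, the RNA that coats the inactive X chromosome of female cells, together with transcripts of heart muscle. Xist was counted in 73, 13, 25 and 45 reads in the Myh2-poor libraries control 1, control 2, mKO 1 and mKO 2, and in 1, 0, 0 and 3 reads in the Myh2-rich libraries control 3, control 4, mKO 3 and mKO 4. The Y-linked gene Ddx3y was present at 4197 to 5665 normalized reads in all 8 libraries, without separation of the sides. Of these measures Xist and the heart transcripts followed the division by Myh2. They were picked after the values of the sides were seen, so this was part of their choice. The read totals, the mitochondrial shares, Myh7 and the adipocyte sum overlapped between the sides. Their part in the results below was not tested unless a value is given.

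Myh2 was at 73690 normalized reads in control 3, 50366 in control 4, 50678 in mKO 3 and 51585 in mKO 4. On the Myh2-poor side it was at 7832 in control 1, 797 in control 2, 4409 in mKO 1 and 6512 in mKO 2. No library lay near the threshold of 20000, since the lowest rich and the highest poor library were 50366 and 7832. Control 2 stood lowest by a wide margin, so the Myh2-poor side was itself uneven.

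Myh1, the type IIx myosin, was at 207420, 173225, 207621 and 224708 normalized reads in the Myh2-rich libraries control 3, control 4, mKO 3 and mKO 4. In the Myh2-poor libraries control 1, control 2, mKO 1 and mKO 2 it was at 119090, 49067, 72600 and 133482. The sides did not overlap, with a log2 difference (Myh2-rich minus Myh2-poor, genotype as covariate) of 1.22 ± 0.25 (SE), which did not pass the adjusted threshold over all genes. Myh4, the type IIb myosin, was the most abundant of the 4 in every library, at 2521590 to 3030450 normalized reads on the rich and 2990590 to 3400930 on the poor side, and these ranges overlapped (log2 difference -0.19 ± 0.21).

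Per length of exons, Myh4 made up 90.6% to 93.6% of the summed reads of Myh1, Myh2, Myh4 and Myh7 in the Myh2-rich libraries and 95.8% to 98.6% in the Myh2-poor ones, which fits the label of white muscle on both sides. Myh2 took 1.31% to 2.07% of this sum on the rich side and 0.0195% to 0.201% on the poor side. Myh1 took 5.07% to 7.65% and 1.35% to 4.05%. Myh4 transcripts thus dominated on both sides. In bulk muscle, fewer fibres of a type and less RNA per fibre cannot be told apart. Reads can also be shared between these genes, since 24.6% of the 50-base stretches of Myh2 occur in another gene, mostly Myh1, and the sources used here do not say how such reads were counted.

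**Figure D1:**
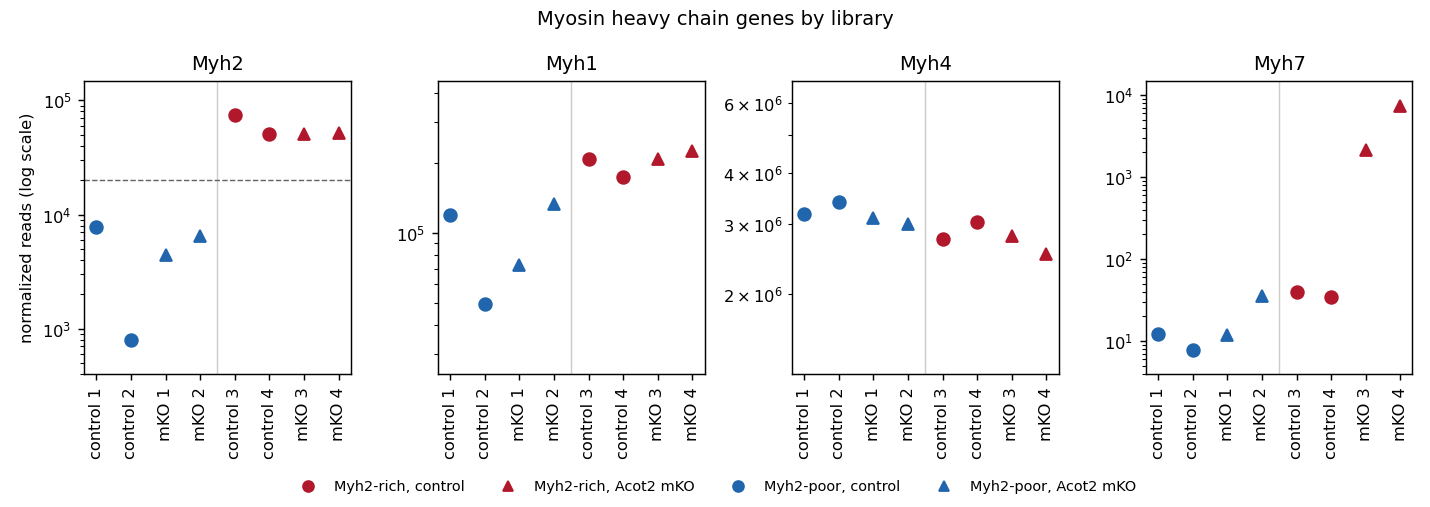
Normalized reads of Myh2, Myh1, Myh4 and Myh7 (log scale) in each library, with circles for controls, triangles for Acot2 mKO, red for Myh2-rich and blue for Myh2-poor libraries; the dashed line in the Myh2 panel is the threshold of 20000. Myh2 and Myh1 do not overlap between the sides, Myh4 does, and Myh7 is above 2000 only in mKO 3 and mKO 4.

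Over the 13637 genes tested beside Myh2, 85 were called higher on the Myh2-rich side (0.623%) and 18 lower (0.132%), with limma and a Benjamini-Hochberg threshold of 0.05. Every Myh2-rich library was above every Myh2-poor one for 512 genes (3.75%) and below every one for 385 (2.82%). Since the libraries were divided by a measured value, these shares are given as background and nothing is read from them. The called genes were higher by a median of 0.76 on the log2 scale (0.34 to 4.69) and differed by a median of -1.03 (-4.57 to -0.42) in the lower direction, and 30 and 9 of them differed by at least 1. Over all tested genes the median was 0.0028, with 6917 above 0 and 6720 below.

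The extremes of the 85 higher genes were unevenly spread over the libraries. Control 2, the library with the least Myh2, was the lowest of the 8 for 58 of them, control 1 for 13 and mKO 1 for 11. Control 3, with the most Myh2, was the highest for 31, mKO 4 for 27 and mKO 3 for 24. Without control 2, 84 genes were called higher and 18 lower, and 64 of the 85 and 12 of the 18 were called again. Without both libraries rich in Myh7, mKO 3 and mKO 4, 9 were called higher and 1 lower. From the 85 and the 18, 7 and 0 were called again. That fit has no knockout on the rich side, so its side difference is that of the controls alone. Each of the 100 called genes that could be tested kept its direction, which for nearly all of them follows from sides that do not overlap. Leaving out control 3, mKO 1 or mKO 4 left 26, 20 and 24 genes called higher.

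The 2 genotypes share no library, so genes picked in one can be looked up in the other, although Myh2 drew the sides in both. The look-up cannot separate Myh2 from anything else that the libraries of a side had in common. Control 1 and mKO 2, both poor, have adjacent animal numbers, as do control 3 and mKO 3, both rich. The part of this in the shares below was not tested. Of 210 genes in which both rich controls were above both poor controls, with means at least 1 log2 unit apart, 71.4% were also higher on the rich side of the knockouts, against 50.8% of all tested genes. For 145 genes lower in the same way, the share was 56.6%, against 49.2%. Picking in the knockouts and looking in the controls gave 62.7% of 185 higher genes (50.3% of all) and 59.2% of 125 lower genes (49.7% of all). No gene passed the test of a difference between the genotypes in the size of the contrast, with 489 at an unadjusted p under 0.05 in limma. The smallest adjusted p of that interaction was 0.524, for Myh7, whose side difference was 7.53 in the knockouts and 1.83 in the controls.

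**Figure D2:**
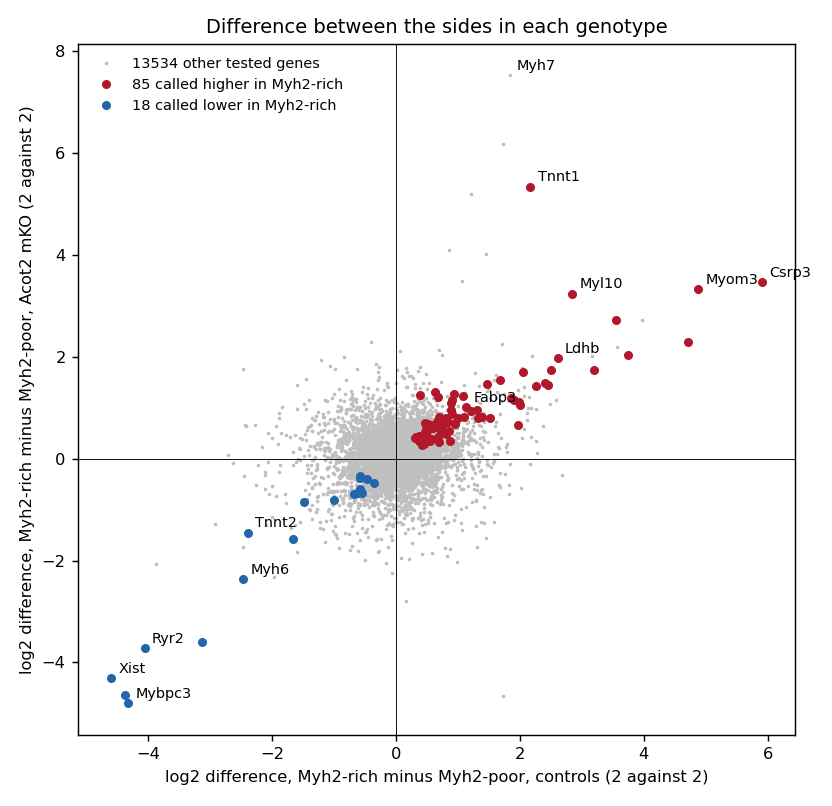
Log2 difference between Myh2-rich and Myh2-poor libraries in the controls (horizontal) and in Acot2 mKO (vertical), 2 libraries against 2 in each, for every tested gene except Myh2. The 85 genes called higher (red) lie in the upper right and the 18 called lower (blue) in the lower left, as their choice requires. Myh7 and Tnnt1 lie high above the others in the knockouts, although neither passed the test of a difference between the genotypes in the size of the side contrast.

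Among the genes with the largest differences were proteins of the sarcomere. Csrp3, a Z-disc protein of slow fibres, was at 501, 1261, 360 and 591 normalized reads in control 3, control 4, mKO 3 and mKO 4, and at 53.3, 2.24, 37.0 and 45.2 in control 1, control 2, mKO 1 and mKO 2. Myom3, a myomesin of the M-band, was at 1347, 1075, 861 and 1139 in the same rich libraries and at 116, 13.4, 91.8 and 104 in the poor ones. For both genes the sides lay far apart, and control 2 was the lowest library. The log2 differences were 4.69 ± 0.76 (SE) for Csrp3 and 4.10 ± 0.52 for Myom3.

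The same set held Lmod2, an actin filament nucleator, at 1024 to 1262 normalized reads on the rich and 109 to 476 on the poor side. Fhl1, a LIM protein tied to the sarcomere and located on the X chromosome, was at 10520 to 14399 and 1604 to 5132. Myh13, a myosin best known from eye muscle and the last gene of the cluster that holds Myh2, was at 140 to 307 and 58.3 to 71.6, with 8.26% of its 50-base stretches shared with another gene. Smtnl1, a smoothelin-like protein placed in the list of fast fibre genes, was at 862 to 1462 and 222 to 558, and was the 1 called gene of that list. None of these ranges overlapped.

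Outside the sarcomere, Ldhb, the heart-type subunit of lactate dehydrogenase that favours lactate use, was at 3776, 2140, 3009 and 2723 normalized reads in control 3, control 4, mKO 3 and mKO 4. In control 1, control 2, mKO 1 and mKO 2 it was at 751, 289, 571 and 926, a log2 difference of 2.29 ± 0.28 (SE). The remaining genes with the largest differences were Zdhhc23 (a palmitoyltransferase, 2.12), Klhl34 (1.94), Egln3 (a prolyl hydroxylase that senses oxygen, 1.55) and Fxyd6 (a modulator of the sodium pump, 1.53), each given as a log2 difference. Of the 85 genes, 3 were predicted or unnamed transcripts of Gm or Rik type.

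**Figure D3:**
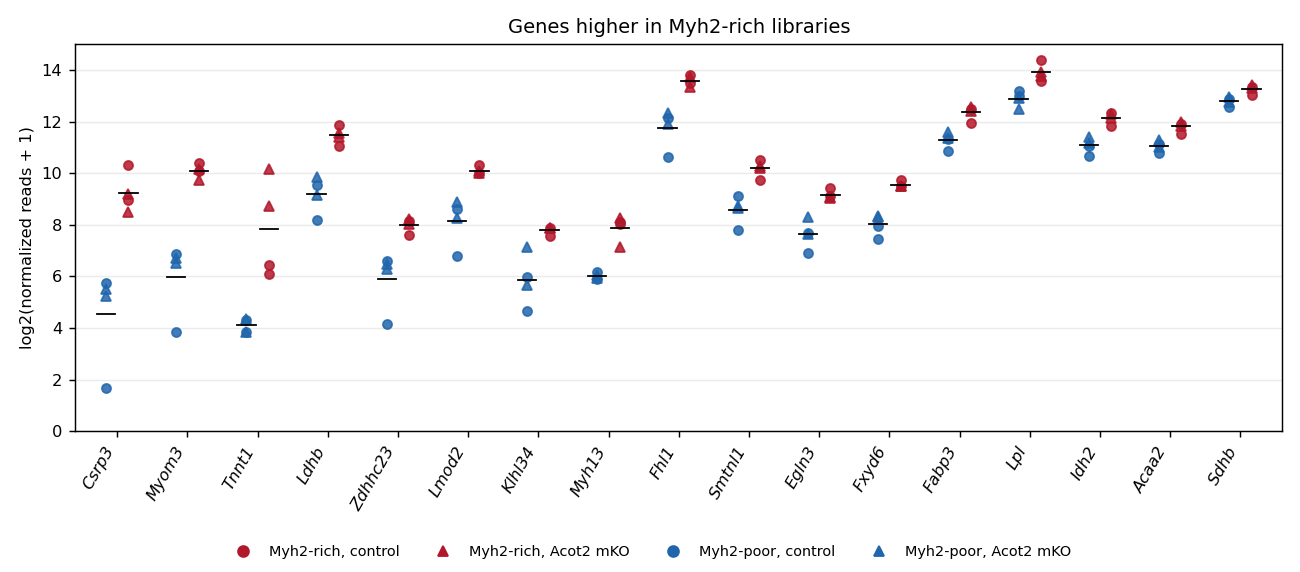
Log2(normalized reads + 1) in each library for the 12 genes with the largest higher values and for 5 metabolic genes, with horizontal lines at the mean of each side (n = 4). All Myh2-rich libraries lie above all Myh2-poor ones for each gene shown, and Tnnt1 splits on the rich side between controls at 67.1 and 85.0 normalized reads and knockouts at 420 and 1161.

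The windows of Myom3 and Ldhb are shown as 2 strongly different genes of unlike function, with capitals for the E-box CANNTG, the MEF2 motif and AGGTCA, a core element bound by oestrogen-related and PPAR receptors. Each was read on both strands, and the matches in these windows do not overlap.
Myom3, chr4:135759465-135759764: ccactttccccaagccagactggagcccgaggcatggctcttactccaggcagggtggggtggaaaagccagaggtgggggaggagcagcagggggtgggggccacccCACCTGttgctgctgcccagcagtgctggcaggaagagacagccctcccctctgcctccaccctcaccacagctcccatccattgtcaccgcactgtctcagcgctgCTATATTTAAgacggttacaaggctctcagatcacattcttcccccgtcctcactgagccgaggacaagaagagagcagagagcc
Ldhb, chr6:142507908-142508207: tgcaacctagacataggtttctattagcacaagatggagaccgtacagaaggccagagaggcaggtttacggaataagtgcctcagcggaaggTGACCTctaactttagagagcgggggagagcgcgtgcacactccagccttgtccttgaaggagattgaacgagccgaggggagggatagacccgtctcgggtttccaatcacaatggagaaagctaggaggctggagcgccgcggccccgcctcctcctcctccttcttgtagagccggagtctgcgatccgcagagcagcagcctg
The Myom3 window held 1 E-box and 1 MEF2 match, and the Ldhb window held 1 AGGTCA match on the opposite strand. Of the 85 genes called higher, 69 had a window in the table, and an E-box was in 79.7% of these, against 63.1% of the windows of all tested genes. The MEF2 motif was in 4 of the 69 (5.8%), against 1.93%, and AGGTCA was in 11.6%, against 11.9%. Of the 18 genes called lower, 13 had a window. An E-box was in 69.2% of these, the MEF2 motif in 2 (15.4%) and AGGTCA in 23.1%. The MEF2 counts, 4 of 69 and 2 of 13, are too small to set the higher and the lower genes apart. Over all 27025 windows an E-box was in 72.1%. A match describes the letters of a window and shows no bound factor.

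Over all tested genes, 0.623% were called higher and 0.132% lower, which stands beside the counts of the lists below. Of 15 tested genes of the slow fibre list, 3 were called higher on the Myh2-rich side (Csrp3, Lmod2 and Tnnt1) and 0 lower, 14 were above 0, and the median log2 difference was 2.60. The median was 1.45 in the controls and 2.73 in the knockouts, with 2 libraries against 2 in each. No gene passed the test of a difference between the genotypes in the size of the side contrast. Tnnt1, the slow troponin T, was at 85.0, 67.1, 420 and 1161 normalized reads in control 3, control 4, mKO 3 and mKO 4 and at 19.1, 13.4, 13.5 and 19.6 in control 1, control 2, mKO 1 and mKO 2.

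The other slow troponins, the slow myosin and its light chains followed mKO 3 and mKO 4 more than the side. Tnni1, slow troponin I, was at 170 and 557 in mKO 3 and mKO 4 and at 0 to 21.6 in the other 6 libraries. Tnnc1, slow troponin C, was at 251 and 652 there and at 3.37 to 39.0 elsewhere. Myl2 and Myl3, slow light chains, were at 649 and 770 in mKO 3 and at 1535 and 1584 in mKO 4, and Myl3 was at 16.2 in the rich library control 4, below all 4 poor ones. None of these 4 genes was called. Without mKO 3 and mKO 4 the list's median was 1.45, which repeats that of the controls, and 0 of its genes were called. Without mKO 1 the median was 2.14 with 0 called.

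Other members of the slow list lay apart between the sides in both genotypes without being called. Ankrd2, a stretch-responsive protein, was at 844 to 1385 normalized reads on the rich and 40.3 to 394 on the poor side, and Myoz2, the slow calsarcin, was at 411 to 878 and 7.83 to 187. Their log2 differences had large errors (2.60 ± 0.55 and 3.35 ± 0.70, SE). Pln, phospholamban, which restrains the calcium pump of slow and heart muscle, was the 1 member below 0, at 41.1 to 77.6 on the rich and 74.9 to 221 on the poor side.

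Fast isoforms had small differences between the sides, most of them below 0. Of 20 tested genes of the fast list, 18 were below 0, with a median log2 difference of -0.14, and 0 were called lower. Every rich library was below every poor one for 5 of the 20, and for 2.82% of all tested genes. The reverse held for 2 of the 20, and for 3.75% of all. Summed over the list, the rich libraries held 5967142 to 6900339 normalized reads and the poor ones 7026301 to 7382896. Myl1, a fast light chain, was at 216843 to 262125 normalized reads on the rich and 282109 to 315613 on the poor side, and Actn3, the fast alpha-actinin, was at 223667 to 258839 and 277321 to 313715. Mybpc2, the fast myosin-binding protein C, was at 149128 to 179459 and 194013 to 210534. For these 3 genes the sides did not overlap, with log2 differences of -0.29, -0.28 and -0.25, none of them called. Pvalb, the calcium buffer parvalbumin, overlapped at 251203 to 294763 and 265287 to 313976, as did the fast calcium pump Atp2a1. 2 members were above 0, Smtnl1 and Myh1.

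Sarcomere genes outside both lists were also among the 85 (chosen after their values were seen). Myl10, a regulatory light chain, was at 86.9, 61.7, 85.6 and 73.7 normalized reads in control 3, control 4, mKO 3 and mKO 4 and at 7.04, 12.3, 5.05 and 11.0 in control 1, control 2, mKO 1 and mKO 2. It was even on both sides and in both genotypes, with side differences of 2.84 in the controls and 3.24 in the knockouts. Mybpc1, the slow myosin-binding protein C, was at 35447 to 49409 and 7203 to 21308, and Actn2, the alpha-actinin of all fibres, at 13087 to 16306 and 4186 to 9799.

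Of 16 tested genes of oxygen and fatty acid supply, 7 were called higher (Fabp3, Lpl, Car14, Ldhb, Hspb6, Hspb7 and Cryab) and 0 lower, 14 were above 0 and the median was 0.50. The median was 0.46 in the controls and 0.51 in the knockouts. Without mKO 3 and mKO 4 it was 0.46, which repeats that of the controls, with 0 genes called. Without control 3, mKO 1 or mKO 4 there were 3, 3 and 2 genes called higher. Fabp3, the fatty acid binding protein of heart and oxidative muscle, was at 5828, 3968, 6047 and 5493 normalized reads in control 3, control 4, mKO 3 and mKO 4. In control 1, control 2, mKO 1 and mKO 2 it was at 2559, 1873, 2653 and 3094, a log2 difference of 1.07 ± 0.12 (SE). Lpl, the lipoprotein lipase that frees fatty acids in capillaries, was at 21274, 12357, 13864 and 15680 on the rich and at 8079, 9388, 5767 and 7678 on the poor side. Control 3 was the highest for Lpl, a gene that adipocytes also express. Control 2, with the largest adipocyte sum and also the least Myh2, was below every rich library. The part of adipocytes in the Lpl values was not tested. Mb, myoglobin, was at 24652 to 43704 and 6155 to 21628, without overlap and with a log2 difference of 1.44 ± 0.31 that was not called. Car3, carbonic anhydrase 3, went the other way without being called, at 8664 to 41605 on the rich and 27876 to 59010 on the poor side.

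Mitochondrial fatty acid oxidation followed, with 5 of 25 tested genes called higher (Acaa2, Hadh, Hadha, Slc25a20 and Etfa), 22 above 0 and a median of 0.34. Acaa2, a thiolase of the last step of the cycle, was at 3819, 2948, 4068 and 3681 normalized reads in control 3, control 4, mKO 3 and mKO 4 and at 2251, 1754, 2079 and 2505 in control 1, control 2, mKO 1 and mKO 2. Slc25a20, the carnitine carrier of the inner membrane, was at 1435 to 2019 and 1139 to 1372, and the trifunctional protein subunit Hadha was at 8406 to 10447 and 6629 to 7865. The gaps between the sides were small beside the sarcomere genes, at 0.76, 0.50 and 0.40 on the log2 scale. Without control 3 or mKO 4, 1 and 2 of these genes were called, and without mKO 1 or without mKO 3 and mKO 4 together 0 were, with list medians between 0.27 and 0.35.

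In the citric acid cycle and its feeders, 3 of 30 tested genes were called higher (Idh2, Mdh1 and Got1), 28 were above 0 and the median was 0.195. Idh2, the NADP-linked isocitrate dehydrogenase of mitochondria, was at 5174, 3605, 5070 and 4571 normalized reads in control 3, control 4, mKO 3 and mKO 4 and at 2147, 1642, 2295 and 2740 in control 1, control 2, mKO 1 and mKO 2. Its log2 difference of 1.07 ± 0.12 (SE) stood well above the list's median. Without mKO 3 and mKO 4 the list's median was 0.16, which repeats that of the controls, and 0 of its genes were called. Without both controls high in adipocyte genes 1 was called, and without control 3, mKO 1, mKO 2 or mKO 4 alone 1 was. Pcx, pyruvate carboxylase, was the member furthest below 0, at -0.34, and its highest library was control 2 at 4683, the library highest in adipocyte genes.

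Subunits of the respiratory chain had small differences above 0, and few were called. All 36 tested nuclear subunits of complex I were above 0, with a median of 0.20 (0.06 to 0.27) and 0 called. All 42 tested subunits of complexes II to V were above 0, with a median of 0.24 (0.01 to 0.475) and 1 called. That gene, Sdhb, the iron-sulphur subunit of succinate dehydrogenase, was at 10393, 8346, 10825 and 10097 normalized reads in control 3, control 4, mKO 3 and mKO 4 and at 7567, 5993, 7022 and 7976 in control 1, control 2, mKO 1 and mKO 2. All 11 tested genes of mitochondrial DNA were above 0, with a median of 0.19 (0.12 to 0.75) and ND6 called, at 2313 to 2514 on the rich and 1573 to 1984 on the poor side. Across these lists every tested gene was above 0 while few were called. Every rich library was above every poor one for 7 of the 36, 12 of the 42 and 3 of the 11 genes, and for 3.75% of all tested genes. The genes of a list are read from the same 8 libraries and are not independent of each other. Mitochondrial ribosomal proteins had a median of 0.11, with 28 of 30 above 0 and Mrpl3 called.

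Further enzymes of acetyl-CoA and ketone use were among the 85 (chosen after their values were seen). Acss1, which makes acetyl-CoA from acetate in mitochondria, was at 752 to 959 normalized reads on the rich and 470 to 558 on the poor side. Oxct1, the enzyme that lets muscle use ketone bodies, was at 15535 to 17237 and 10229 to 12714, and Pank1, which starts coenzyme A synthesis, at 384 to 547 and 251 to 313. The mitochondrial creatine kinase Ckmt2 was the 1 called gene among 13 of energy buffering, at 27745 to 37029 and 15386 to 23872.

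Of 35 tested glycolysis genes 0 were called in either direction, while 25 were below 0 and the median was -0.09. Every rich library was below every poor one for 8 of the 35, and for 2.82% of all tested genes. Pfkfb4, a regulator of phosphofructokinase, was at 1425 to 1661 normalized reads on the rich and 1775 to 1931 on the poor side, and Gpd2, the mitochondrial glycerol phosphate dehydrogenase, was at 7898 to 9242 and 9829 to 11016. Gbe1, the glycogen branching enzyme, went the other way, at 1497 to 2005 and 1176 to 1504, with 1 library overlapping.

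Of 43 tested transcription factors and cofactors tied to fibre type, 22 were above 0 and 21 below, with a median of 0.00, and 1 was called higher. That gene, Ppara, the fatty acid receptor that drives oxidation genes, was at 352, 264, 376 and 381 normalized reads in control 3, control 4, mKO 3 and mKO 4 and at 213, 168, 189 and 245 in control 1, control 2, mKO 1 and mKO 2. Sox6, a repressor of slow fibre genes, was at 8589 to 9618 on the rich and 10497 to 11019 on the poor side, without overlap and without a call. Esrrb, an oestrogen-related receptor, was at 37.7 to 87.9 and 10.1 to 35.5, also without overlap and not called. Ppargc1a, the coactivator of mitochondrial growth, overlapped, with a log2 difference of 0.10 ± 0.08 (SE).

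**Figure D4:**
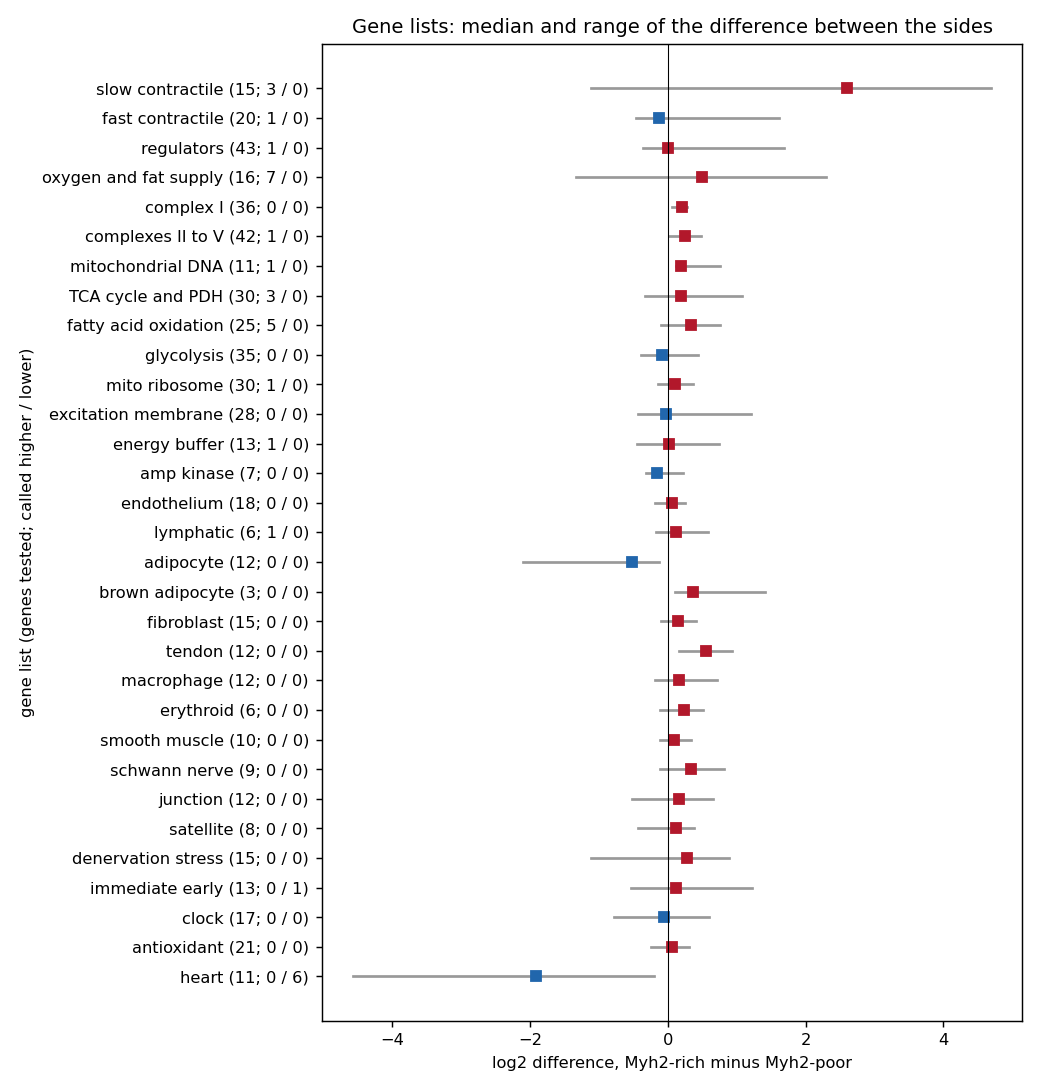
Median (square) and range (line) of the log2 difference between the sides for each gene list, red above and blue below 0, with the numbers of tested and of called genes beside the name. The slow list lies furthest above 0 at 2.60 and the heart list furthest below at -1.92, while the respiratory chain lists are narrow and just above 0. The heart list was added after the values were seen, so its place is a description. Of its 11 tested genes, 3 passed the filter through the Myh2-poor libraries only.

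The largest lower values were heart muscle genes and Xist. Ryr2, the calcium release channel of heart muscle, was at 282, 120, 86.7 and 315 normalized reads in control 1, control 2, mKO 1 and mKO 2, and at 21.97, 4.33, 13.7 and 9.92 in control 3, control 4, mKO 3 and mKO 4. Myh6, the alpha myosin of the heart, was at 1009, 498, 352 and 1125 in the same poor libraries and at 127, 127, 95.9 and 154 in the rich ones. Within the Myh2-poor side, control 1 and mKO 2 were the highest for both genes and for Xist.

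A list of 17 heart genes, added after the values were seen, had 11 members that passed the filter of 10 normalized reads in 4 libraries. Of these, Tnni3, Mybpc3 and Dsp reached 10 normalized reads in Myh2-poor libraries only, so that the filter itself set their direction, and the counts over the list are a description. All 11 were below 0, and 6 were called lower (Myh6, Tnni3, Tnnt2, Mybpc3, Ryr2 and Dsp) and 0 higher, with a median of -1.92. With no filter, all 17 were tested, with a median of -1.46 and 6 called lower. Among the 18 genes called lower, Xist also passed through the Myh2-poor libraries only, as 1 of the 85 called higher did through the Myh2-rich ones (1190003K10Rik). Summed over the list, the rich libraries held 853 to 1006 normalized reads and the poor ones 1463 to 2942. Mybpc3, the heart form of myosin-binding protein C, was counted in 282 reads over the 4 poor and 13 over the 4 rich libraries, and Tnni3, heart troponin I, in 188 and 16. The heart genes that did not pass the filter had few reads in any library. Nppa gave 10 reads over the poor and 0 over the rich libraries, Tbx20 10 and 0, and Gata4 9 and 0. Myl7 gave 4 and 0, Nkx2-5 1 and 0, and Nppb 1 and 1. Myh6 shares 20.2% of its 50-base stretches with Myh7. Of the rich libraries mKO 4, with the most Myh7, was the highest for Myh6 and mKO 3 the lowest, and the part of shared reads was not tested.

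Xist was at 73.4, 14.5, 21.0 and 55.0 normalized reads in control 1, control 2, mKO 1 and mKO 2 and at 0.955, 0, 0 and 2.13 in control 3, control 4, mKO 3 and mKO 4. The Y-linked genes Kdm5d, Uty and Eif2s3y overlapped between the sides, as Ddx3y did. Without control 1 and mKO 2, the libraries with the most Xist, 97 genes were called higher and 7 lower, and 51 of the 85 and 5 of the 18 were among them. The count of lower genes thus changed by more than 1.5 times and that of higher genes did not. For the heart list the median was -1.08 in that fit, with 2 genes called lower.

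**Figure D5:**
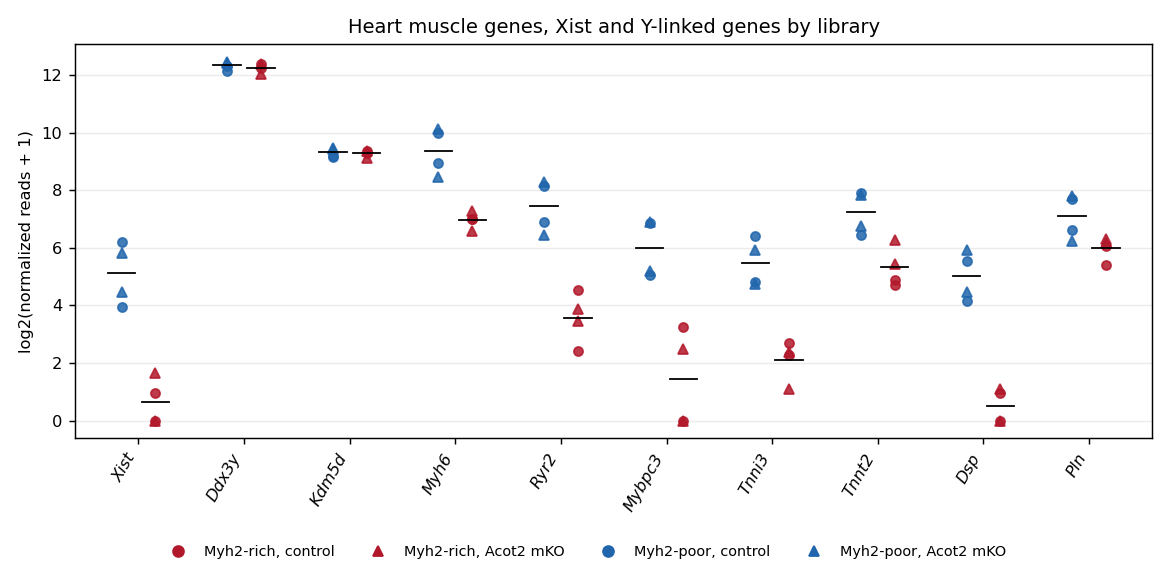
Log2(normalized reads + 1) of Xist, 2 Y-linked genes and 7 heart muscle genes in each library, with horizontal lines at the mean of each side (n = 4). Xist and the heart genes other than Pln lie higher in all 4 Myh2-poor libraries, and the Y-linked genes are level between the sides.

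The other lower genes differed by less. Nmrk2, a muscle kinase that makes NAD from nicotinamide riboside, was at 2789 to 3145 normalized reads on the rich and 3853 to 5238 on the poor side. Gadl1, a decarboxylase of beta-alanine metabolism, was at 261 to 440 and 577 to 810. Cdh4, a cadherin of cell adhesion, was at 298 to 377 and 481 to 603, and Ctxn3 at 394 to 517 and 661 to 734. Nr4a1, an immediate early nuclear receptor, was at 1412 to 1717 and 1934 to 2504, and was the 1 called gene of 13 in the immediate early list, whose median was 0.12. Polk, a DNA polymerase, and Mylf-ps, by its symbol a pseudogene that may share reads with its parent, were lower by 0.46 and 0.43 on the log2 scale. The 18 lower genes included 3 of Gm or Rik type.

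Markers of other cells of the muscle were measured for comparison, and in the main fit none of these lists had more than 1 called gene. Adipocyte genes were all below 0 (12 tested, median -0.52), but the median was -1.51 in the controls and 0.41 in the knockouts, and it was 0.23 without control 2 and 0.19 without control 4. Lep, leptin, shows this unevenness, at 156 normalized reads in control 2, 83.1 in control 3, 51.3 in control 1 and 2.16 to 29.5 in the other 5. With a block for adjacent animal numbers the adipocyte median was lower still and most of the 12 were called lower, as given under the dependence on processing. Tendon genes were all above 0 (12 tested, median 0.55, 0 called), and every one of the 12 overlapped between the sides. Comp, a tendon matrix protein, was at 353 to 647 on the rich and 160 to 523 on the poor side.

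Capillary and other stromal lists had few calls. Endothelial markers had a median of 0.05 (18 tested), satellite cell markers 0.12 (8 tested), macrophage markers 0.165 (12 tested), fibroblast markers 0.14 (15 tested), smooth muscle markers 0.08 (10 tested) and red cell transcripts 0.24 (6 tested), with 0 called in each. In several of them the genotypes, with 2 libraries against 2 each, had medians of opposite sign: -0.19 in the controls and 0.53 in the knockouts for macrophage, -0.18 and 0.32 for smooth muscle, and -0.07 and 0.51 for red cell genes. Schwann cell and nerve markers had a median of 0.34 (9 tested, 0 called), with -0.10 in the controls and 0.72 in the knockouts, and without both controls high in adipocyte genes it was 0.69 with 2 called higher. No gene of these lists passed the test of a difference between the genotypes in the size of the side contrast. For lymphatic markers the median was 0.12 (6 tested, Reln called higher). Kdr and Pecam1, receptors of endothelial cells, differed by 0.24 ± 0.12 and 0.15 ± 0.07 (SE). Of the neuromuscular junction genes (12 tested, median 0.16), the acetylcholine receptor subunit Chrna1 was at 312 to 331 on the rich and 173 to 264 on the poor side, and Musk, its clustering kinase, at 615 to 900 and 970 to 1251, neither of them called. Genes of denervation or stress had a median of 0.27 (15 tested), the circadian clock -0.06 (17 tested), AMP-activated kinase subunits -0.15 (7 tested), antioxidant enzymes 0.06 (21 tested), channels and pumps -0.03 (28 tested), with 0 called. Brown fat markers had 3 tested genes (median 0.37, 0 called), and of 9 lymphocyte markers 0 passed the filter, at a summed 2.3 to 17.1 normalized reads per library.

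The genotype contrast, which the labels give, was fitted with the side held. It called 3 genes (0.022%), the deleted Acot2 lower and Kbtbd12 and Reln higher. Acot2, a mitochondrial acyl-CoA thioesterase, was at 149 to 251 normalized reads in the controls and 42.8 to 53.7 in the knockouts, a log2 difference of -2.13 ± 0.16 (SE, adjusted p = 0.000223, limma, lower in 4 of 4 knockouts). Between the sides Acot2 overlapped, with a log2 difference of 0.35 ± 0.16 that was not called. Kbtbd12, a kelch protein of muscle, was at 1715 to 1840 and 4662 to 5465, with a log2 difference of 1.57 ± 0.06 (SE) and an adjusted p of 3.39e-07 (limma). It was level between the sides, at -0.07 ± 0.06.

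Reln, a secreted glycoprotein also made by lymphatic vessels, was called both for the side and for the genotype. It was at 365, 393, 625 and 735 normalized reads in control 3, control 4, mKO 3 and mKO 4 and at 271, 279, 437 and 396 in control 1, control 2, mKO 1 and mKO 2. Within each genotype the rich libraries were above the poor ones, while over all 8 the sides overlapped. The genotype difference was 0.72 ± 0.09 (SE, adjusted p = 0.0404, limma). Without the side as a covariate 2 genes were called, and Reln lost its genotype call with trimmed-mean (TMM) scaling (adjusted p = 0.0613), quantile normalization (0.0529) and each time 1 library was left out (0.0597 to 0.308). It also lost it with log2 Myh2 as a continuous term (0.732), without both Myh7-rich libraries (0.950), without both controls high in adipocyte genes (0.188) and without both libraries with the most Xist (0.226).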

How the data were processed

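Total RNA of 8 libraries was made into stranded libraries, per the labels' protocols. Per the submitters' processing notes, which give neither roles nor versions, the authors used FastQC, cutadapt, STAR, HTSeq, DESeq2 and the build GRCm38. The deposited values are log2 of normalized reads + 1, as found from the values: undoing the log gave whole multiples of 1 read's worth (0.708 to 1.22 by library) for 100% of values below 1000, within 0.1 of a read. This pseudocount of 1 understates the change of low genes. Of 54091 genes, 27 with names turned into dates were restored through the gene number in the same row, and 13638 had at least 10 normalized reads in at least 4 libraries. The 8 columns were tied to samples by animal number, which points to separate mice, and the labels give no batch.

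Sides were drawn from Myh2, and limma 3.58.1 in R 4.3.3 was fitted to the log2 values of all tested genes (trend on mean expression, genotype and side as terms, and their product for the interaction). Calls used Benjamini-Hochberg adjustment over all tested genes at 0.05. The script was tested on simulated data. Lengths and positions came from GENCODE M21. The members, the lists and the naming rule were chosen with earlier results of these data known: the myosins, the 12 largest called differences per direction at a mean of 100 normalized reads or more with sides apart, all slow and fast isoforms, up to 4 members per list by p and the member most against its direction, and Acot2 and Kbtbd12. Genes named otherwise (Xist, the Y-linked and heart genes, Mb, Myl10, Mybpc1, Actn2, Acss1, Oxct1, Pank1, Reln) were chosen after their values were seen. Of the genes the rule takes, 1 is not reported here, and its list's counts include it.

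The alternatives changed 1 choice each, except that limma-voom also scaled by total reads (a fit with the authors' scaling was added after seeing the data): the pseudocount (0.5, 10), the filter (none, or means from 100 normalized reads), the scaling (TMM, quantile), equal weights (arrayWeights), the tool (limma-voom on recovered reads), the covariate (none), the sides (log2 Myh2 as a continuous term) and the libraries (adjacent animal numbers as a block, single libraries left out, or pairs that stood apart).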

Additional observations from a re-analysis of the deposited data

Results flagged for a closer look

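For 195 named genes, each side of 4 libraries was checked for 1 library far from the other 3 (Dixon's ratio of gap to range above its 95% critical value), and 29 of 390 groups held one. Chance alone gives about 1 in 20 groups, so single entries carry little weight. All values are normalized reads, with the range of the other 3 libraries of the same side in parentheses.

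Control 2, Myh2-poor and highest in adipocyte genes, stood above its side for the fat synthesis enzymes Scd1 at 30016 (1893 to 5368) and Acaca at 3272 (568 to 635), for the lipid droplet gene Cidea at 86.2 (1.01 to 1.68), for Pcx at 4683 (2420 to 2647) and for the heart actin Actc1 at 36809 (13738 to 15227). Control 3, Myh2-rich, stood above its side for Lep at 83.1 (2.16 to 4.96) and Acaca at 909 (596 to 598). It was also high for Egln3 at 692 (533 to 554), Fxyd6 at 857 (719 to 723) and Polk at 904 (754 to 778), and low for Pecam1 at 1405 (1554 to 1567).

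Control 4, Myh2-rich, was low for Klhl34 at 187 (234 to 237) and Myoz2 at 411 (861 to 878). It was high for Pvalb at 294763 (251203 to 258122), the fast calsarcin Myoz3 at 1151 (904 to 928), Ampd1 at 33679 (30345 to 30773), Prkab2 at 17074 (13891 to 14395) and the stress gene Atf3 at 215 (39.97 to 65.9). Control 1, Myh2-poor, was high for the phosphorylase kinase subunit Phka1 at 53142 (46141 to 47268) and low for the embryonic myosin Myh3 at 35.2 (46.3 to 47.0).

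Among the knockouts, mKO 1, Myh2-poor, was high for Pvalb at 313976 (265287 to 270242) and low for Kdr at 1255 (1725 to 1765). Library mKO 2, Myh2-poor, was high for Myh7 at 35.5 (7.83 to 12.1). Library mKO 3, Myh2-rich, was high for Pgam2 at 39081 (34242 to 35061). Library mKO 4, Myh2-rich, was high for the matrix gene Col12a1 at 2715 (1208 to 1382) and Chodl at 420.0 (360.1 to 369), and low for Klf15 at 837 (950.3 to 960.3), the clock gene Per3 at 390.3 (481 to 486) and Nrip1 at 1091 (1355 to 1388).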

How the results depend on the processing

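Across all alternatives run, each of the called genes that could be tested (92 to 103 of 103) kept its direction, while the numbers of calls moved. The kept direction was largely fixed by the choice of these genes. Their sides did not overlap for 84 of the 85 called higher and 18 of the 18 called lower. The counts that follow need not hold the same genes. With log2 Myh2 as a continuous term, 66 of the 85 and 3 of the 18 were called again. With a block for adjacent animal numbers these were 49 and 9, and without the 2 Myh7-rich libraries 7 and 0. The 85 genes called higher became 182 with log2 Myh2 as a continuous term, 50 without the 2 controls high in adipocyte genes, 9 without the 2 libraries rich in Myh7, and 20 to 99 when 1 library was left out. The 18 called lower became 28 with no filter, 11 with a mean of at least 100 normalized reads, 11 with limma-voom scaled by total reads, which moved the median of all genes to 0.0466 (14 with the deposited scaling, added after seeing the data), 45 with a block for adjacent animal numbers, 10 without the 2 controls, 1 without the 2 Myh7-rich libraries, 7 without the 2 libraries with the most Xist (an alternative chosen after seeing the data), and 4 to 38 when 1 library was left out. The 3 genotype calls became 27 with the block and 1 without the Myh7-rich libraries (Acot2 adjusted p = 0.0796), and 2 to 3 when 1 library was left out. The interaction, with 0 calls, gave 2 with continuous Myh2, 1 with the block, 3 without the libraries with the most Xist, and 0 to 11 when 1 library was left out. It cannot be estimated without both Myh7-rich libraries. Fewer samples go with the smaller fits, and the cause of the other shifts was not tested.

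The block was tried because the animal numbers come in 4 neighbouring pairs of 1 control and 1 knockout, of which 2 hold both sides. The labels do not say that these mark litters, and the deviations of paired libraries from their genotype's mean correlated at 0.306 and 0.397 (across 9677 genes) where both were on 1 side and at -0.189 and -0.119 where they were not, so the pairing is not established. With the block 8 of 12 adipocyte genes were called lower (list median -2.405) and 11 of 15 slow genes higher. In that fit the side difference rests on the 2 pairs that hold both sides, control 2 with mKO 4 and control 4 with mKO 1. Control 2 had the largest adipocyte sum and mKO 4 the most Myh7, and their part in these calls was not tested. Depth limits the low genes most: Xist and Dsp rest on 156 and 135 reads over the 4 Myh2-poor libraries. All p-values measure the spread between these 8 libraries, and a side cannot be told apart from whatever else divided them.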

Other observations

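Of the 85 genes called higher on the Myh2-rich side, 61 belonged to none of the lists. Some of them, picked after their values were seen, encode secreted or membrane proteins. Fgf1, a fibroblast growth factor, was at 555 to 753 normalized reads on the Myh2-rich side and 200.3 to 358 on the Myh2-poor side, a log2 difference of 1.10 ± 0.16 (SE). Wfs1, a membrane protein of the endoplasmic reticulum, was at 1328 to 1615 and 718 to 951. The sides did not overlap for either gene. Small heat shock proteins also stood on the list of higher genes, with Hspb7 at 2288 to 2675 and 422 to 1411, Hspb6 at 4401 to 4682 and 2545 to 3872, and Cryab at 7995 to 9532 and 4454 to 7148. Plin3, a coat protein of lipid droplets, was at 734 to 841 and 546 to 635.

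The sodium pump subunit Atp1b1 was at 2755 to 3347 normalized reads on the Myh2-rich and 636 to 2179 on the Myh2-poor side, without overlap and without a call. The perinatal myosin Myh8, which lies between Myh4 and Myh13 in the same cluster as Myh2, was at 248 to 335 and 269 to 310.0, with a log2 difference of 0.01 ± 0.11 (SE). Of the genes of the cluster described here, beside Myh2 itself, Myh13 was called higher, while Myh1, Myh4 and Myh8 were not called.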
